A study of Drosophila melanogaster with 20 samples.

Results

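The comparison described here is that of Drosophila SL2 cells given double-stranded RNA (dsRNA) against SPS1 with untreated SL2 cells, both harvested on day 1, the earliest harvest of the series. It holds the 10 day 1 arrays of the 20 arrays in the series, 5 labelled SPS1 dsRNA and 5 labelled as untreated controls, chosen by their sample titles. SL2 is Schneider's line 2, a line from late embryos that is often described as macrophage-like, and both groups grew in HyQ SFX-Insect medium at 25 °C. The dsRNA was added straight to plated cells, which were divided into new dishes 24 hours later. The design text gives the purpose as finding primary and secondary target genes of SPS1. The untreated cells got no dsRNA of any kind, so the loss of SPS1 and the exposure to dsRNA cannot be told apart in these groups. The labels call the arrays of a group biological replicates and do not say whether they came from separate cultures, so p-values measure the spread between these samples, some of which may be technical.

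Long dsRNA taken up by SL2 cells is cut into short RNAs that direct the breakdown of the matching mRNA, so on the first day the target's mRNA falls while protein made earlier can persist. Selenophosphate synthetases are the enzyme family that makes the selenium donor for selenocysteine. In Drosophila that reaction is carried out by Sps2, while SPS1 lacks the activity, is essential for viability, and has been tied to the metabolism of vitamin B6. The active form of vitamin B6, pyridoxal phosphate (PLP), is formed by an oxidase that sgll (sugarlethal) encodes, and it serves as the cofactor of many amino acid enzymes.

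RNA was measured on Affymetrix Drosophila Genome 2.0 arrays, and levels are the deposited log2 values, in which 1 unit is a doubling. After 183 control probe sets were left out, 18769 probe sets were tested. Day 1 array medians lay between 4.56 and 4.68. Same-numbered arrays of the groups resembled each other: their deviations from the group means correlated at r = 0.69 to 0.84 across 6826 probe sets of mean log2 over 6, against at most 0.61 for any other number. Differences were therefore taken within pairs, each knockdown array minus the untreated array of the same number. Arrays numbered 1 and 5 lay apart from those numbered 2, 3 and 4. For example, the root mean square difference was 0.171 log2 units between untreated arrays 1 and 5, 0.170 between untreated arrays 2 and 3, and 0.253 between untreated arrays 1 and 3. By this measure the partner was the nearest array in pairs 1, 3 and 4 (0.156, 0.140 and 0.145). Untreated array 2 was farther from its partner (0.182) than from untreated array 3. Likewise untreated array 5 was farther from its partner (0.179) than from untreated array 1.

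One array went against its label. At 1 probe set with no gene symbol in the annotation used here, the 5 untreated arrays read 11.46, 11.61, 11.56, 9.46 and 11.48 in the order of their replicate numbers. The 5 SPS1 dsRNA arrays read 8.73, 9.44, 9.35, 9.44 and 8.84. The array labelled untreated, replicate 4, thus lay with the knockdown arrays, 0.02 above its own partner. This probe set was taken because, of those without a symbol, it had the largest departure of that array from the other 4 untreated arrays. Its reading is therefore part of the choice and no separate evidence on the label. The other 4 untreated arrays were at 11.53 ± 0.066 (SD, n = 4) and did not overlap with any knockdown array. Over 4 pairs, without replicate 4, this probe set fell by 2.44 log2 units (SE 0.105, limma adjusted p = 0.000681), a 5.43-fold decrease. With replicate 4 the difference was -1.96 (SE 0.343) and the adjusted p was 0.73. The level of the targeted gene is not reported here. Counts of calls and shares of genes are given with and without the replicate 4 pair, and other values say over which pairs they were taken. Since that array was singled out from values of this same contrast, the 4-pair values are not independent of the choice.

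The array labelled untreated, replicate 4, stood with the knockdown at other genes too. Of 24 probe sets that were lower by 0.3 log2 units or more with knockdown and had no overlap between the other 4 untreated and 4 knockdown arrays, it lay within or beyond the knockdown range at 14 and within or beyond the untreated range at 5. Its partner, knockdown replicate 4, had counts of 12 and 4. Of 7 such probe sets that were higher with knockdown, the array labelled untreated, replicate 4, lay within or beyond the knockdown range at 5 and within the untreated range at 0. The 24 include the unnamed probe set above. With no limit on size, groups of 4 without overlap were found at 0.847% of all probe sets in the lower and 0.725% in the higher direction.

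At pst and sgll the arrays split in the same way. The protein of pst (pastrel) takes part in antiviral defence in flies. Untreated arrays 1 to 5 read 10.48, 10.66, 10.84, 9.60 and 10.56 for pst, and knockdown arrays read 9.71, 9.46, 9.65, 9.71 and 9.79. Again all untreated arrays but number 4 lay above every knockdown array, while number 4 was 0.11 below its partner. Over 4 pairs the difference was -0.98 (SE 0.091), or 1.98-fold, and did not pass the test (limma adjusted p = 0.0842). A 4-against-4 fit without the replicate block did call pst (adjusted p = 0.0114). Over 5 pairs the difference was -0.77 (SE 0.168, adjusted p = 0.73).

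The gene sgll, for the PLP-forming oxidase, read 8.45, 8.70, 8.66, 7.76 and 8.52 in the untreated arrays and 8.02, 7.64, 7.85, 7.69 and 8.14 in the knockdown arrays. It was lower in all 5 pairs, most in pairs 2 and 3 (-1.06 and -0.80) and least in pair 4 (-0.06). The array labelled untreated, replicate 4, was again within the range of the knockdown. The difference was -0.67 (SE 0.114, adjusted p = 0.368 in limma) over 4 pairs and -0.55 (SE 0.126, adjusted p = 0.73) over 5. Sps2, which makes selenophosphate, read 8.03, 8.52, 8.69, 8.65 and 8.24 untreated and 8.08, 8.67, 8.78, 8.64 and 8.34 with knockdown. The groups overlapped throughout, and the pair differences of Sps2 averaged 0.08 (SE 0.045) over 5 pairs and 0.10 (SE 0.050, adjusted p = 0.764) over 4.

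**Figure D1:**
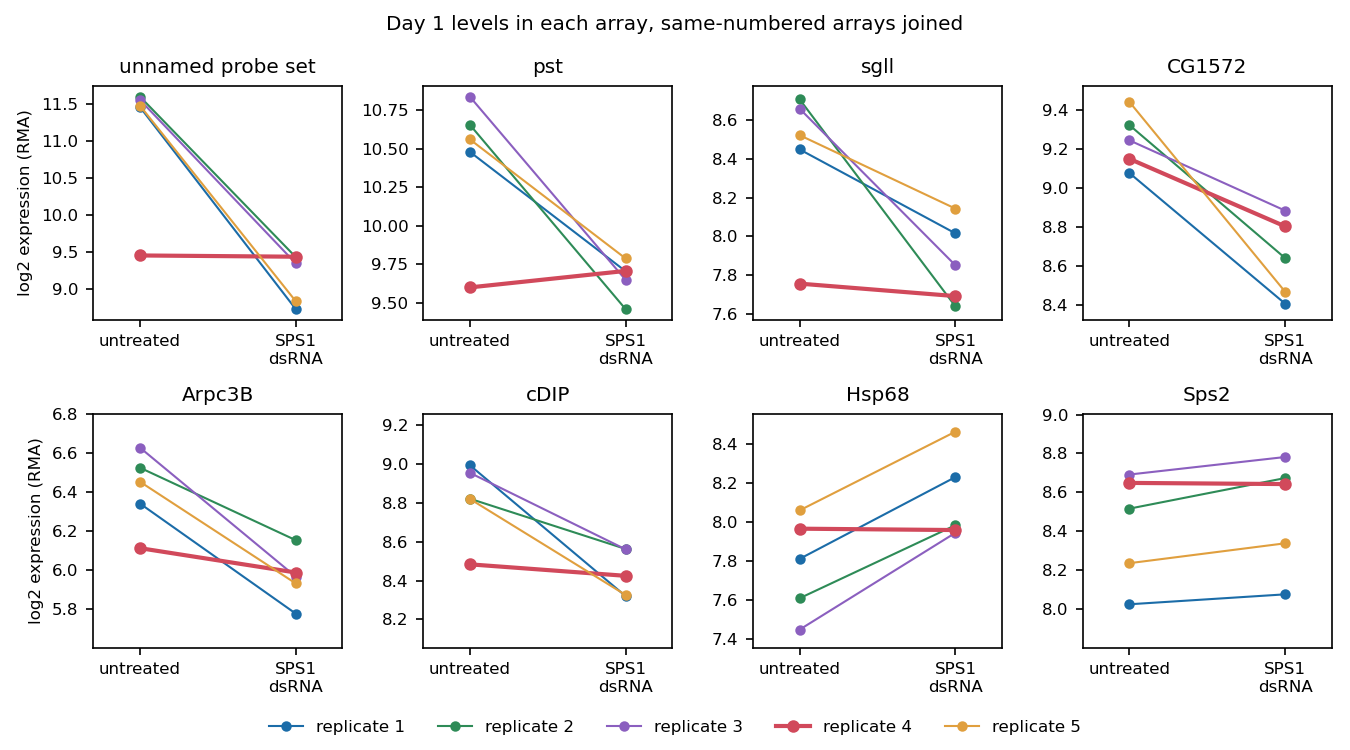
Log2 level (RMA) of 8 probe sets in each of the 10 day 1 arrays, with a line joining the untreated and the SPS1 dsRNA array of each replicate number and replicate 4 drawn in heavy red. In the unnamed probe set, pst and sgll the array labelled untreated, replicate 4, starts at the knockdown level (9.46, 9.60 and 7.76), while CG1572 is lower with dsRNA in all 5 pairs and Sps2 is nearly level.

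Counted over all probe sets, day 1 held few changes that passed the test. With 5 pairs limma called 0 of 18769 probe sets (0%) at an adjusted p under 0.05, and 1182 (6.3%) had an unadjusted p under 0.05, 625 of them lower (3.33%) and 557 higher (2.97%). With 4 pairs it called 1 (0.00533%), the unnamed probe set above, and 1305 (6.95%) had an unadjusted p under 0.05, 660 of them lower (3.52%) and 645 higher (3.44%). Differences were small: their SD over all probe sets was 0.079 log2 units with 5 pairs and 0.091 with 4. With 5 pairs 7 probe sets were lower by 0.5 or more and 1 was higher by as much, and without replicate 4 these counts were 14 and 2. A difference of the same sign in every pair was seen at 3.73% of probe sets in the lower and 3.49% in the higher direction over 5 pairs, and at 7.7% and 7.54% over 4. How the test borrowed its spread mattered. When the prior was allowed to follow intensity, limma called 2 probe sets with 5 pairs, CG1572 (adjusted p = 0.0075) and the unnamed probe set (adjusted p = 0.0121), and 33 with 4 pairs, 26 of them lower. With no moderation at all it called 0 in either.

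The genes that follow were named by a rule on p, on a size of at least 0.3 log2 units and on 1 direction in every pair, so their signs and sizes were chosen and none is called unless said. In all 5 pairs 20 probe sets, with or without a gene name, met the limits on size, direction and mean level downward and 3 upward. Among the named genes CG1572 had the smallest p. Its untreated arrays read 9.08, 9.32, 9.24, 9.15 and 9.44, and its knockdown arrays 8.41, 8.64, 8.88, 8.80 and 8.47, with no overlap between the groups. Groups of 5 without overlap were found at 0.234% of all probe sets in the lower direction and 0.128% in the higher. The difference of CG1572 was -0.61 (SE 0.090, adjusted p = 0.73 in limma), 1.52-fold, and in pair 4 alone it was -0.35, so at CG1572 the array labelled untreated, replicate 4, lay with its group.

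Arpc3B encodes a subunit of the Arp2/3 complex, which starts branched actin filaments. It read 6.34, 6.53, 6.63, 6.11 and 6.45 untreated and 5.78, 6.15, 5.97, 5.99 and 5.93 with knockdown, and only the array labelled untreated, replicate 4, came within the knockdown range. The Arpc3B difference was -0.45 (SE 0.076) over 5 pairs and -0.53 (SE 0.062, adjusted p = 0.202) over 4. For cDIP, the common Dpr-interacting protein, the untreated arrays read 8.99, 8.82, 8.95, 8.48 and 8.82 and the knockdown arrays 8.32, 8.56, 8.56, 8.42 and 8.33. Here too replicate 4 of the untreated group fell inside the knockdown range, and the difference was -0.38 over 5 pairs and -0.45 over 4. The other named lower genes differed by -0.31 to -0.51 log2 units over 5 pairs. Sfxn1-3, a sideroflexin of the mitochondrial membrane, differed by -0.31, Esyt2, an extended synaptotagmin that tethers the endoplasmic reticulum to the plasma membrane, by -0.32, and the tetraspanin Tsp42El by -0.34. The FGF ligand bnl (branchless), which guides tracheal branching, differed by -0.33. CG30484, CG5399 and CG44838 differed by -0.51, -0.39 and -0.31.

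The 3 genes that met the rule upward were retm (0.36), Sox14 (0.32), a Sox-family transcription factor, and cbt (cabut, 0.55), a zinc-finger transcription factor that responds to sugar and stress signals. The mean of cbt came mostly from pairs 1 and 5. Its pair differences were 1.18, 0.21, 0.18, 0.00 and 1.18, because untreated arrays 1 and 5 read 9.23 and 9.10 against 10.13 to 10.38 in the other 3. All knockdown arrays of cbt lay between 10.28 and 10.41.

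With the replicate 4 pair left out, 58 probe sets, with or without a gene name, met these limits downward and 30 upward. The named genes of smallest p that the 5-pair list lacked were pst, CG9008, CG12880, CG4408 and CG13117, at -0.98, -0.60, -0.73, -0.34 and -0.45. In pair 4 the differences of CG9008, CG12880 and CG13117 were 0.25, 0.18 and 0.05, so these 3 had the opposite sign there, as did pst. The 5-pair rule asked for 1 direction in every pair, so an opposite sign in pair 4 by itself kept these genes off that list. Genes of the 4-pair list were ranked without pair 4, so their values there are no separate evidence on that pair. Upward, Hsp68, an inducible chaperone of the Hsp70 family, had the smallest p of the named genes. Hsp68 read 7.81, 7.61, 7.45, 7.97 and 8.06 untreated and 8.23, 7.98, 7.94, 7.96 and 8.46 with knockdown. It was higher by 0.38 to 0.50 in the 4 pairs and level in pair 4 (-0.01), although the groups overlapped because levels differed between pairs. The 4-pair difference of Hsp68 was 0.42 (SE 0.051, adjusted p = 0.202).

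The other genes on the upward side of the 4-pair list did not pass the test. The cytochrome P450 genes Cyp28d1 and Cyp4d20 differed by 0.34 and 0.43. The activin-like ligand daw (dawdle) differed by 0.35, and Sesn (sestrin), a stress-induced restraint on the TORC1 growth kinase, by 0.30. Tab2, the partner of the Tak1 kinase in the Imd immune pathway, differed by 0.34, and Pdk, the kinase that switches off pyruvate dehydrogenase, by 0.36. Atg18b, of an autophagy gene family, differed by 0.30, and lawc and CG33229 by 0.31 and 0.32. The adjusted p of these 9 genes lay between 0.272 and 0.52, and in pair 4 their differences ranged from -0.22 for Sesn to 0.14 for lawc.

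**Figure D2:**
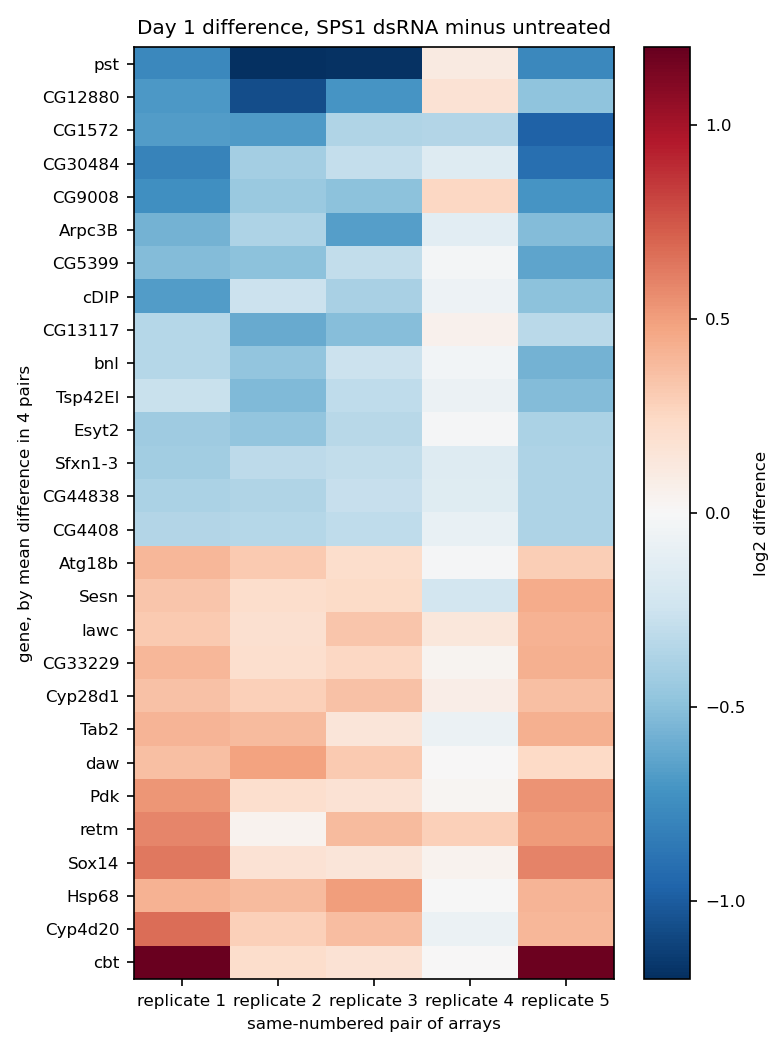
Log2 difference, SPS1 dsRNA minus untreated, in each same-numbered pair (columns) for the 28 genes named by the rule on day 1 values (vertical axis, ordered by their mean in 4 pairs), blue for lower and red for higher. The column of replicate 4 is pale, with pst at 0.11 and Hsp68 at -0.01, and cbt is dark in replicates 1 and 5 only (1.18 in both). Most of these genes were ranked without replicate 4, so its pale column follows in part from that choice.

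Whether the later response had begun on day 1 was read from genes chosen without any day 1 array. In the 8 samples of days 3 and 5, limma on the mean of both days' contrasts called 98 probe sets lower (0.522%) and 58 higher (0.309%). In the lower list, 82 genes had a name of their own. Of these 98 probe sets, 50 (51%) were lower in all 4 day 1 pairs, where 7.7% of all probe sets were, and 0 were higher in all 4. Over 5 pairs 23 (23.5%) were lower in every pair, where 3.73% of all probe sets were. Among probe sets of mean log2 over 6 the corresponding share was 10.5% for 4 pairs. An unadjusted p under 0.05 on the lower side of the 4-pair fit was reached by 48 of them (49%), where 3.52% of all probe sets reached it, yet 1 alone was called.

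The day 1 differences of these genes were small beside the later ones. The median day 1 difference of the 98 was -0.152 over 4 pairs and -0.110 over 5, where the median of all probe sets was 0.002 and 0.001, and the median over days 3 and 5 was -1.09. On day 1, 18 of the 98 were lower by 0.3 or more. Of the 53 that were lower by 1 log2 unit or more at days 3 and 5, 35 (66%) were lower in all 4 day 1 pairs. Pairs differed: 67, 95, 88, 35 and 64 of the 98 were lower in pairs 1 to 5, with medians of -0.098, -0.284, -0.204, 0.039 and -0.048. Pair 2 also had a general tilt, since 4748 of 6826 probe sets of mean log2 over 6 were lower in it, with a median of -0.060.

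The replicate 4 pair can be taken apart on this list. The array labelled untreated, replicate 4, was below the mean of untreated arrays 2 and 3 at 93 of the 98 probe sets, with a median of -0.231. Against the mean of knockdown arrays 2 and 3 it was below at 47 of 98, with a median of 0.014. Knockdown replicate 4 differed from knockdown arrays 2 and 3 by a median of 0.049 and was below them at 26. Over all 18769 probe sets the corresponding medians were 0.012, 0.012 and 0.011. These medians compare arrays numbered 2, 3 and 4 only, since arrays 1 and 5 lay apart. Whether its label is right was not tested beyond these values.

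**Figure D3:**
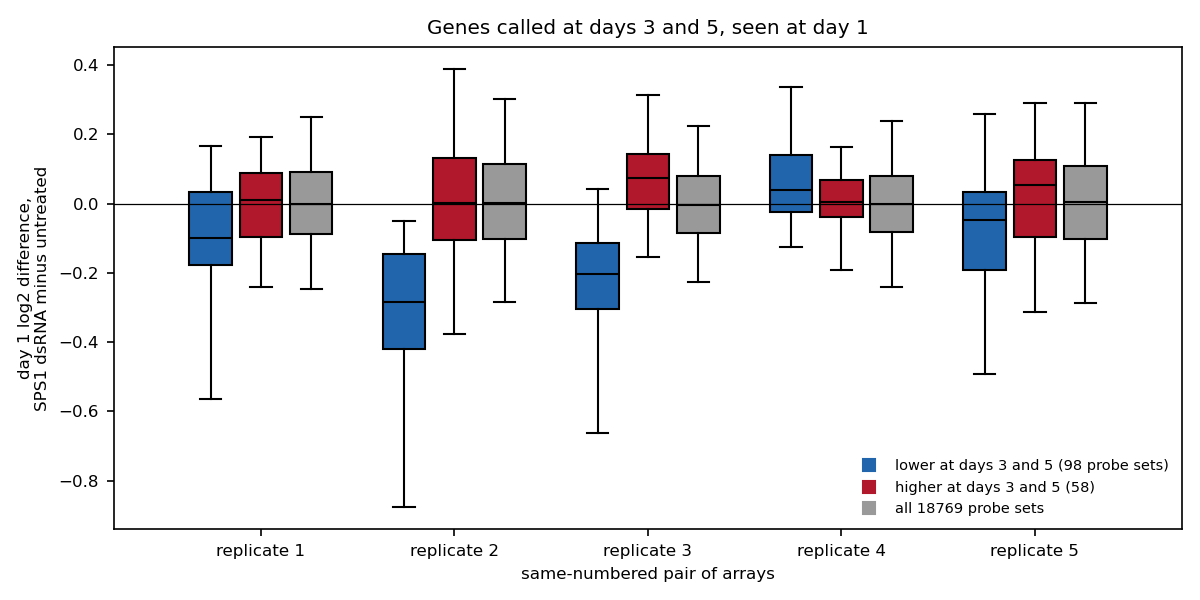
Day 1 log2 differences, SPS1 dsRNA minus untreated, in each same-numbered pair for the 98 probe sets lower at days 3 and 5 (blue), the 58 higher (red) and all 18769 (grey). Boxes give the median and quartiles, and whiskers run from the 5th to the 95th percentile. The blue medians lie below the grey ones except in replicate 4, where the blue median is 0.039.

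Several of the early members have known roles. The 12 given here were picked by role with their values known, and not by the naming rule alone. In pairs 1, 2, 3 and 5 the differences of Ids, a lysosomal sulfatase, were -0.13, -0.91, -0.76 and -0.12. For aub (aubergine), a Piwi-family protein of the piRNA pathway, they were -0.11, -0.41, -0.61 and -0.15. Ids and aub were thus most negative in pairs 2 and 3. Cbs, the PLP-dependent cystathionine beta-synthase, was more even, at -0.28, -0.38, -0.28 and -0.25. Even as well was gammaTub37C, a gamma-tubulin isoform of the fly ovary and egg, at -0.39, -0.38, -0.43 and -0.23. The list also held exu, needed for mRNA localisation in oocytes, with a 4-pair mean of -0.29, numb, an inhibitor of Notch (-0.27), Atox1, a copper chaperone (-0.30), and Samtor, the S-adenosylmethionine sensor of TORC1 (-0.20). Also lower in all 4 pairs were GNBP3, a recognition protein for fungal glucans (-0.19), Ctps, the CTP synthase (-0.22), Pbgs, an enzyme of heme synthesis (-0.18), and grk (gurken), an EGF receptor ligand (-0.46). Among these 12 genes the adjusted p of the 4-pair fit was 0.345 or above, and a second exu probe set of the list stood at -0.05.

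The genes of smallest p at days 3 and 5 showed how far each had gone by day 1. Over 4 pairs sgll stood at -0.67 on day 1, -2.77 on day 3 and -3.71 on day 5, and CG1572 at -0.67, -1.90 and -3.31. gammaTub37C stood at -0.35, -1.74 and -2.41 and tamo at -0.33, -0.90 and -1.46. For fbp, the fructose-1,6-bisphosphatase of gluconeogenesis, the values were -0.29, -1.40 and -1.42. CG10063 and CG15399 stood at -0.22 and -0.18 on day 1, and CREG, the kinetochore gene Nnf1b and CG32280 at -0.13, -0.13 and -0.10. On day 1 none of these 10 passed the test, but the intensity-trend fit over 4 pairs called sgll (adjusted p = 0.0155 in limma), CG1572 (adjusted p = 0.00633) and gammaTub37C. For sgll and CG1572 the change at day 5 was more negative than that at day 1 in a test of the difference itself. The day 1 values named CG1572 as well. The gene sgll was kept with earlier results of these data known, so part of its difference may come from that choice. With all 5 pairs, day 5 minus day 1 was -3.16 for sgll and -2.70 for CG1572 (limma, all 18 samples, adjusted p = 1.8e-05 and 3.3e-05).

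The genes that were higher at days 3 and 5 stood close to 0 on day 1. Of the 58 probe sets, 11 (19%) were higher in all 4 pairs, where 7.54% of all probe sets were, and 5 (8.62%) in all 5 pairs, where 3.49% were. Their median was 0.031 over 4 pairs, and 31, 29, 41, 30 and 34 of them were higher in pairs 1 to 5. The 9 named among the 11 were daw, CG32625, dmGlut, nemy, Ugt35A1, gas, Spn42Da, edin and CG8839, with 4-pair means of 0.35, 0.31, 0.22, 0.12, 0.12, 0.12, 0.13, 0.12 and 0.08. Rpp14b, a ribonuclease P subunit gene that had the smallest p upward at days 3 and 5, read 5.30, 5.00, 5.06, 5.49 and 4.93 untreated and 5.07, 5.34, 5.05, 5.29 and 5.22 with knockdown. The groups overlapped completely and the 4-pair difference was 0.10 (SE 0.098), while it was 2.11 on day 3 and 3.22 on day 5. The others of the top 10 did not pass the test on day 1 either: dmGlut at 0.22, Nepl4 at 0.15, CG3085 at 0.19, CG46491 at 0.07, CG14629 and CG31075 at 0.03, and LManII, wdp and CG6231 at -0.04, -0.08 and -0.11.

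**Figure D4:**
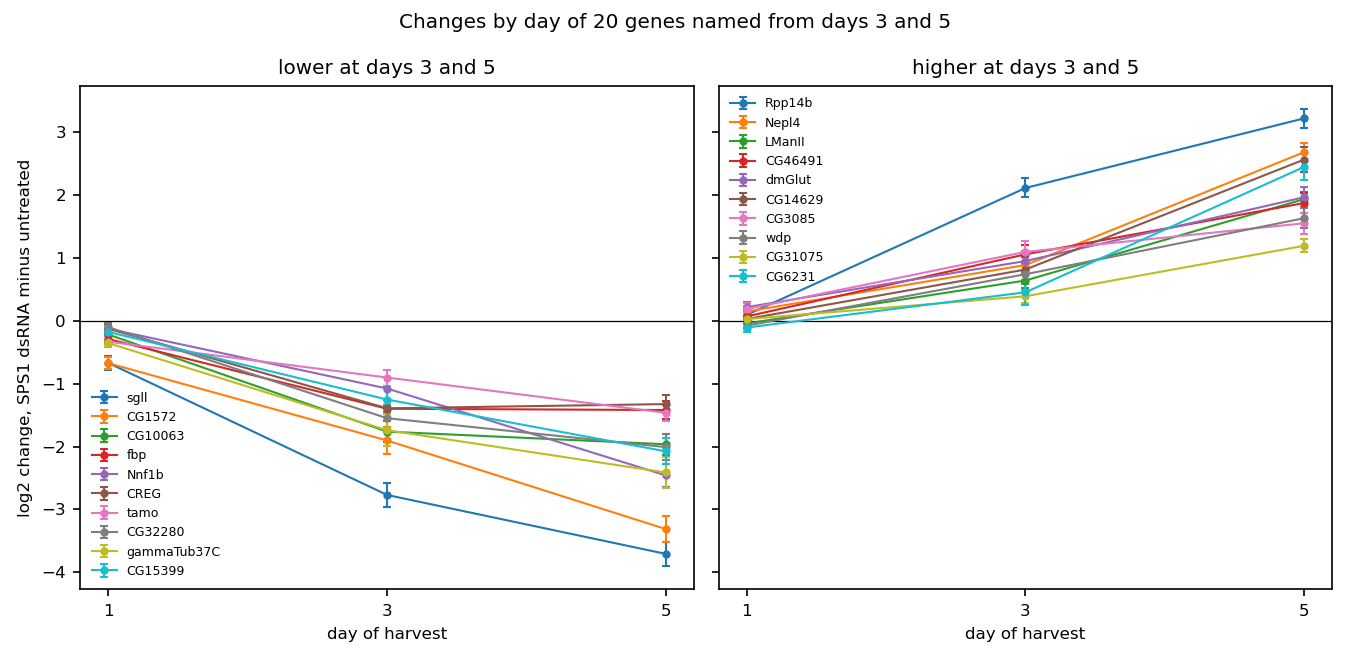
Log2 change, SPS1 dsRNA minus untreated, at day 1 (4 pairs, paired fit), day 3 and day 5 (fit of days 3 and 5) for the 10 lower and 10 higher genes of smallest p at days 3 and 5, with bars of 1 standard error. Only sgll and CG1572 are below -0.5 on day 1 (both -0.67), and none of the higher genes is above 0.25.

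The genes that the rule on day 1 values had named took several courses by day 5. CG1572, Arpc3B, cDIP, Tsp42El, bnl, CG44838, CG12880 and CG13117 were each more negative on day 5 than on day 1 in the test of the difference, with adjusted p from 3.3e-05 to 0.022 using all 5 pairs. CG30484 stood at -0.51 on day 1 and at 1.79 on day 5, CG5399 at -0.39 and 1.00, and Esyt2 at -0.32 and 0.71. Their day 1 sign was part of the naming rule. On day 1 by itself none of these 3 passed the test (limma adjusted p = 0.73). On day 5 the limma fit of days 3 and 5, which had no replicate block, gave an adjusted p of 0.161, 0.82 and 0.159. The test of the difference did use a block, so its result and these day 5 values come from unlike models. A day 5 test with the block is not given here. Upward, daw went from 0.28 to 2.14 and Sesn from 0.20 to 1.53, with differences that passed the test (adjusted p = 0.0021 and 0.00069). Hsp68, named for a positive day 1 value, stood at 0.34 on day 1 and -0.46 on day 3.

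Beyond these genes, the 5 pairs differed in their day 1 pattern. Across 6826 probe sets the differences of pairs 1 and 5 correlated at r = 0.76 and those of pairs 2 and 3 at r = 0.36. Over all 18769 probe sets, most of them with a mean log2 of 6 or less, these values were 0.35 and 0.08. Over the 6826, pairs 1 and 3 correlated at 0.11, and every other combination lay between -0.07 and 0.07, including all 4 that involve pair 4. Probe sets share their array's scaling and are not independent replicates, so these values describe the arrays. Pairs 1 and 5 had 34 probe sets lower by at least 0.5 in both and 36 higher in both, and pairs 2 and 3 had 14 and 4. Pairs 1 and 2 had 5 and 0.

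The genes of largest shared difference in pairs 1 and 5, picked after their values were seen and given without a test, included several at which untreated arrays 1 and 5 differed from the other untreated arrays. The Fos transcription factor gene kay read 11.98 and 11.82 in untreated arrays 1 and 5, 11.25 to 11.52 in the other 3, and 10.96 and 10.76 in knockdown arrays 1 and 5. For edl, an antagonist of ETS factors in EGF receptor signalling, untreated arrays 1 and 5 read 11.58 and 11.49, against 10.62 to 10.78 in the other untreated arrays. The knockdown arrays of edl all lay between 10.56 and 10.77. Traf4, an adaptor upstream of JNK, read 9.29 and 9.42 in those untreated arrays, 8.58 to 8.76 in the others, and 8.54 to 8.77 with knockdown. PGRP-LF, which restrains the Imd pathway, read 7.27 and 7.36, then 6.19 to 6.43, and 6.17 to 6.53 with knockdown.

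Other genes of this group did not take that form, among them aos (argos), a secreted inhibitor of the EGF receptor and a target of its signal. The untreated arrays of aos were alike, at 8.07, 7.94, 8.06, 7.83 and 8.15, and its knockdown arrays read 6.44, 7.51, 7.81, 7.90 and 6.66. CG30484 too was lowest in knockdown arrays 1 and 5, at 5.48 and 5.54 against 6.25 to 6.52 in the other knockdown arrays. The pair differences of aos were -1.63, -0.42, -0.25, 0.07 and -1.49, and the 4-pair fit gave an adjusted p of 0.55. Upward, uno was like aos. It read 6.32 and 6.77 in knockdown arrays 1 and 5, 5.81 to 5.91 in the other knockdown arrays and 5.53 to 5.92 untreated. Nufip, sofe, Asciz and cbt repeated in mirror image the form in which untreated arrays 1 and 5 stood apart. Nufip read 7.15 and 7.18 in untreated arrays 1 and 5, 8.23 to 8.30 in the other 3, and 7.78 to 8.29 with knockdown. In pair 2 the differences of Nufip, sofe and Asciz had the opposite sign, at -0.47, -0.18 and -0.06.

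Pairs 2 and 3 shared negative differences of pst, sgll, btn, CG12880, Ids, Nepl19, Mnr, CG2811, CG4502 and CG13117, again chosen after their values were seen. For btn (buttonless), a homeobox gene, the differences were -0.99 and -0.83 in pairs 2 and 3, -0.32 and -0.33 in pairs 1 and 5, and 0.17 in pair 4. CG4502 stood at -0.67 and -0.53 in pairs 2 and 3 and at 0.02 and 0.01 in pairs 1 and 5. Thus most of these genes were lower in pairs 1 and 5 by a smaller amount, and CG4502 was not. The 1 named gene higher by 0.5 or more in both, CG18473, ran the other way elsewhere, with pair differences of -0.68, 0.58, 0.92, -0.06 and -0.69. What the replicate numbers mark is not given, so culture, hybridisation and other conditions that they may share cannot be told apart.

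**Figure D5:**
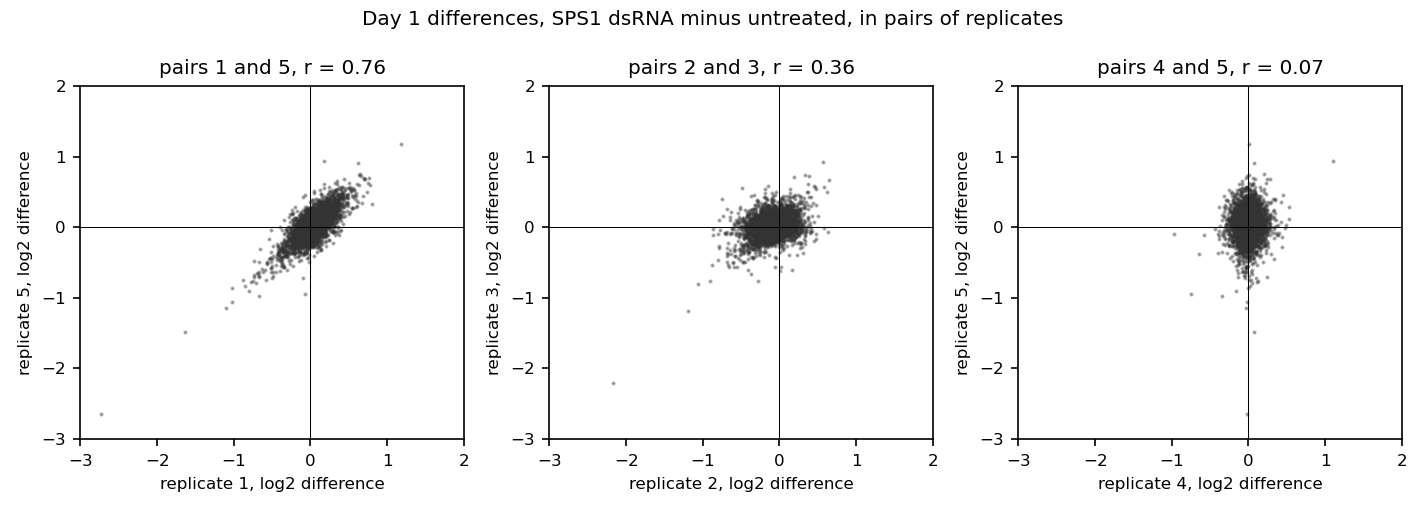
Day 1 log2 difference, SPS1 dsRNA minus untreated, of 1 pair (horizontal axis) against another (vertical axis) across 6826 probe sets of mean log2 over 6, 1 point per probe set. Pairs 1 and 5 run along the diagonal (r = 0.76), pairs 2 and 3 less so (0.36), and pairs 4 and 5 do not (0.07), with the unnamed probe set at the lower left of the first 2 panels.

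By function, 22 gene lists were described, and 0 of their members were called in either fit, where 0% and 0.00533% of all probe sets were called. With an intensity trend the 4-pair fit did call sgll, Cbs, pst, Tab2, GstO3 and Hsp68. Counts of members lower or higher in all 4 pairs are to be read against 7.7% and 7.54% of all probe sets, and against 10.5% and 9.93% of those with a mean log2 over 6. The medians of the lists ranged from -0.114 to 0.069 over 4 pairs and from -0.050 to 0.040 over 5, where the median of all probe sets was 0.002 and 0.001. Values of list members below are over 4 pairs. For most lists the 2 lower and 2 higher members of smallest p are given. Among 10 measured genes of vitamin B6 metabolism 3 were lower in all 4 pairs and 1 higher, and the median was -0.114 over 4 pairs and -0.050 over 5. Besides sgll these were CG31473 at -0.21 (SE 0.061), CG32487 at 0.13 and CG5567 at 0.08. Only 3 of the 10 had a mean level over 6 log2 units, and CG31473 and CG32487 averaged 4.51 and 3.42 in untreated cells, near the low end of the array.

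Of 12 measured selenium pathway genes 0 were lower and 3 higher in all 4 pairs, with a median of 0.004 over 4 pairs and 0.031 over 5. MsrA, a reductase of oxidised methionine, stood at 0.25 (SE 0.062, adjusted p = 0.578), and SecS, which makes the selenocysteine-loaded tRNA, at 0.18. The selenoprotein gene BthD stood at -0.08 and SelT at -0.06. Among 23 PLP-dependent enzymes the median was 0.001, and 3 were lower and 0 higher in all 4 pairs. Cbs stood at -0.30 (SE 0.051), ornithine aminotransferase (Oat) at -0.24 (SE 0.059), Tdc1, a tyrosine decarboxylase, at 0.16 and the glycogen phosphorylase Glyp at 0.09. Of 16 genes that handle glutamine, glutamate or proline 1 was lower in all 4 pairs, with CG10184 at -0.36 and the glutamine synthetase Gs1 at 0.10.

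Genes of the integrated stress response and one-carbon metabolism had the highest median, 0.069 over 4 pairs and 0.040 over 5 for 12 genes, with 3 higher and 0 lower in all 4 pairs. Beside Sesn these values were 0.18 for aay, the last enzyme of serine synthesis, -0.03 for CG6287 and -0.03 for pug. The median by pair was 0.145, -0.034, 0.054, -0.040 and 0.082, so it was not above 0 in pairs 2 and 4. Heat shock genes, 16 in number, had a median of 0.027. DnaJ-1, a co-chaperone of the Hsp40 family, stood at 0.14, Hsc70-4, the constitutive Hsp70, at -0.05 and Hsp110 at -0.04, so the inducible Hsp68 stood alone in size among those named.

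Immune and stress-signal genes had no called member on day 1. Of 11 antimicrobial peptide genes 0 were lower and 1 higher in all 4 pairs. The gene edin stood at 0.12 and Mtk (Metchnikowin) at 0.09, while on day 5 they stood at 3.64 and 4.57. Drs (Drosomycin) and Drsl2 stood at -0.13 and -0.12. Among 19 Imd pathway genes 2 were lower and 4 higher in all 4 pairs. PGRP-LF stood at -0.48 (SE 0.148), pirk, an inhibitor of the pathway, at -0.13 and PGRP-LB, an amidase that clears peptidoglycan, at 0.14. Of 15 JAK-STAT and JNK genes 2 were lower and 1 higher. Gadd45, a stress-induced activator upstream of JNK, stood at 0.30 (SE 0.058, adjusted p = 0.469), kay at -0.47, the JNK phosphatase gene puc at -0.10 and grnd, the Eiger receptor, at 0.02.

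In the list for RNA interference and dsRNA uptake, 27 measured genes had a median of 0.001, and 6 were lower and 1 higher in all 4 pairs. Of these pst and aub had the smallest p downward. The 27 count pst, an antiviral defence gene that is not a part of the RNA interference machinery. The piRNA nuclease gene zuc (zucchini) stood at 0.21 (SE 0.054) and krimp at 0.07. Of 35 glutathione S-transferases 3 were lower and 6 higher in all 4 pairs, with GstO3 at -0.35 (SE 0.060), GstZ2 at -0.12, GstD4 at 0.20 and GstE9 at 0.19. In redox defence, with 19 genes, the catalase gene Cat stood at 0.15, Keap1 at 0.21 and the glutamate-cysteine ligase genes Gclc and Gclm at -0.10 each.

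Housekeeping lists had narrow ranges. The 28 proteasome genes lay between -0.11 and 0.00, with a median of -0.043, and 10 of the 28 were lower in all 4 pairs and 2 in all 5. Pomp stood at -0.11 and Prosalpha2 at -0.09, each at an adjusted p of 0.758 or above, and Rpn5 at 0.00 was the only member not below 0. Ribosome biogenesis had a median of -0.033 for 34 genes, 6 of them lower and 1 higher in all 4 pairs, with Nle at -0.14, Rrp4 at -0.16 and Ns2 at 0.04. The 34 also count Rrp1 (0.04), which in the fly is a DNA repair gene and not one of ribosome biogenesis. In pair 2, which had the general tilt described above, the medians of proteasome and ribosome biogenesis genes were -0.090 and -0.083. Glycolysis and sugar phosphate genes, 18 in number, had a median of -0.041, with Hex-A at -0.15, Pdk at 0.36 and the gluconeogenic Pepck1 at 0.14. Of 31 cell cycle genes 4 were lower and 5 higher, with CycE, the cyclin of S phase entry, at -0.24 (SE 0.057), dup at -0.09, tum at 0.11 and Orc5 at 0.09. The 17 genes of mitochondrial fusion, fission and quality lay between -0.09 and 0.07, with fzo, Tom40, Pink1 and Miro at -0.09, -0.06, 0.07 and 0.04.

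Summed levels of cell type markers overlapped between the groups. Of 12 plasmatocyte markers 4 had an untreated mean over 6, namely srp (10.1), ush (9.91), drpr (8.92) and crq (8.49). Hml, Pxn, NimC1, eater, He and Sr-CI, which mark plasmatocytes in the larva, were low, at 5.91, 5.96, 4.57, 4.54, 3.55 and 3.66. The summed log2 level of the 12 ran from 73.7 to 77.9 over untreated and from 74.5 to 77.4 over knockdown arrays. For 7 crystal cell and lamellocyte markers it ran from 42.4 to 43.1 and from 41.9 to 43.2. Short lists for other tissues overlapped as well: 3 neuron markers at 16.9 to 17.6 and 17.1 to 17.6, 3 muscle markers at 19.1 to 19.4 and 19.0 to 19.4, and 4 fat body markers at 17.0 to 17.5 and 17.0 to 17.8. Of these 10 only elav (6.32) and Mf (11.6) were over 6. In bulk RNA fewer cells of a type and less RNA per cell cannot be told apart.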

How the data were processed

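Values are the log2 expression levels the authors deposited, made with RMA, as the submitters' processing notes record. Which version was run is not given in the sources used. RMA compresses differences of weakly expressed genes toward 0, and the number of arrays limits the precision. Groups came from the titles. Of 18769 tested probe sets, 13647 had 1 gene symbol, 402 had several and 4720 had none in the platform annotation. Entrez identifiers of 13544 matched RefSeq's gene table (assembly Release 6 plus ISO1 MT), used for names only.

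Same-numbered arrays were paired: each of the 5 numbers correlated best with itself, at r = 0.69 to 0.84, and no label says what a number marks. The main test was limma 3.58.1 under R 4.3.3 on day 1 arrays with the replicate number as a block, over 5 pairs and over 4 pairs without replicate 4 (residual degrees of freedom 4 and 3, prior ones 4.55 and 4.36). P-values were adjusted by Benjamini-Hochberg across every tested probe set, and adjusted p under 0.05 was called. The list for days 3 and 5, and the changes on each of those days, came from a limma fit of those 8 samples alone, without a replicate block. In it 2 technical arrays were averaged with biological replicate 2. Differences between days were tested in 1 fit of all 18 samples with day by replicate as a block (6 residual degrees of freedom). Unblocked, unmoderated and intensity-trend fits, other scalings, a filter on level and leaving out each pair were the alternatives.

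Genes were named by smallest p among those of at least 0.3 log2 units, mean log2 of at least 5 and 1 direction in every pair (10 each way per fit, 10 each way from days 3 and 5, and sgll, Sps2 and the unnamed probe set). Within each gene list the 2 lower and 2 higher members of smallest p in 4 pairs were taken, and a gene was represented by its probe set of highest mean. The members, the gene lists and the naming rule were chosen with earlier results of these data known.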

Additional observations from a re-analysis of the deposited data

Results flagged for a closer look

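In 4 of 98 groups of 5 arrays (49 genes or probe sets in each of the 2 groups), 1 array was separated from the other 4 by a gap above Dixon's 95% critical value of 0.71. Chance gives this in about 1 of 20 independent groups, so the count is no more than that rate gives. The genes here were chosen and share their arrays, so the rate is only a rough guide. The array labelled untreated, replicate 4, accounted for 3 of them. The first, the unnamed probe set, had been taken for that array's departure, and the second, pst, was named only with that array left out. That array read 9.46 at the unnamed probe set against 11.46 to 11.61 in the other untreated arrays, 9.60 at pst against 10.48 to 10.84, and 7.76 at sgll against 8.45 to 8.70. The fourth was Nnf1b in knockdown replicate 5, at 8.21 against 7.95 to 8.01 in the other knockdown arrays.

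The change with SPS1 dsRNA differed between days in 20 of 62 tests of 31 genes (limma on all 18 samples, adjusted over all probe sets, 2 samples per group at days 3 and 5). Genes that had been named for their days 3 and 5 values alone were left out, since that choice fixes a difference. The gene sgll, which also led the days 3 and 5 list, was kept with earlier results of these data known. Part of its difference may therefore come from the choice. The genes kept were mostly named for their day 1 values, which the test uses again, so for CG30484, CG5399, Esyt2, Hsp68 and lawc, whose later values lie on the other side of 0, part of the difference comes from the choice. With 5 pairs, the change at day 5 minus that at day 1 was -3.16 for sgll, -2.70 for CG1572, -1.42 for CG12880, -1.13 for cDIP, -0.99 for Tsp42El, -0.88 for bnl, -0.85 for CG13117, -0.84 for CG44838, -0.78 for Arpc3B, -0.46 for lawc and -0.42 for CG4408. It was 2.30 for CG30484, 1.86 for daw, 1.39 for CG5399, 1.33 for Sesn and 1.04 for Esyt2. The change at day 3 minus that at day 1 was -2.22 for sgll, -1.29 for CG1572, -1.14 for Tsp42El and -0.80 for Hsp68. Without the replicate 4 pair, 4 of the 20 no longer passed: CG1572 at day 3 (-1.23, adjusted p = 0.085), Tsp42El at day 3 (-1.07, adjusted p = 0.064), CG4408 (-0.37, adjusted p = 0.065) and lawc (-0.50, adjusted p = 0.052).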

How the results depend on the processing

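Calls over 5 pairs stayed at 0 in limma except with an intensity trend (2) and when 1 pair was left out (0 to 1, the 1 being the fit without replicate 4). Over 4 pairs the 1 call became 2 with no replicate block, 33 with an intensity trend and 0 with no moderation, and stayed at 1 when any further pair was left out. The share of genes lower at days 3 and 5 that were lower in every pair ranged from 23.5 to 51% when 1 of 5 pairs was left out and from 52 to 61.2% when 1 of 4 was, beside 5.87 to 7.7% and 12 to 15.1% of all probe sets. It was 14.1% (5 pairs) and 28% (4 pairs) with the longer list from a replicate block at days 3 and 5, and 66% (4 pairs) with the list of 1 log2 unit or more. For the higher list, leaving out a pair gave 10.3 to 19% of 5 and 22.4 to 32.8% of 4 pairs, beside 6.02 to 7.54% and 12.6 to 15.6% of all probe sets. Leaving knockdown replicate 1 of day 5 out of the list, a choice made after seeing the data, gave 19.6 and 51.8% for the lower list and 6.67 and 23.3% for the higher. Of 478 alternative values for 39 results of single genes or probe sets, 460 kept direction and side of the threshold, 17 passed it anew, 1 no longer passed (the unnamed probe set without moderation, adjusted p = 0.413) and 0 turned direction. Of 44 alternative list medians 43 moved by less than the spread between pairs and 1 by more.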
